A study of Mus musculus with 24 samples.

Results

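The 24 RNA-seq libraries of a study of P815 cells, a mouse mastocytoma line of the mast cell lineage, carry replicate numbers 1, 2 or 3, and here the 8 libraries numbered 1 (series 1) were set against the 16 libraries numbered 2 or 3. Each of the 8 groups gave 1 library to each series, so that the treatments were balanced between the series. Libraries were assigned to the series by their titles alone. The split itself was taken up because series 1 had been seen to lie apart on a principal component of these same data. The SH_E2 and SH groups were transfected with an shRNA against mouse ESR1, and the NC_E2 and NC groups with a negative control vector. The ICI_E2 and ICI groups received ICI-182780, and the Tamo_E2 and Tamo groups tamoxifen, both blockers of estrogen receptors. Groups whose name ends in E2 also received the estrogen β-estradiol, and the hormone and inhibitor treatments lasted 24 h. No time is stated for SH or NC without the hormone. All groups were cultured with fetal bovine serum in RPMI-1640 medium, no group was labelled as vehicle alone or untransfected, and the inhibitor groups were not labelled as carrying a vector. A pair of groups with and without E2 is called an arm below. The labels do not say whether a replicate number marks a culture, a passage, an extraction or a sequencing run, so that p-values measure the spread between libraries, which may be technical, and these sources of a difference between series cannot be told apart.

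Several of the gene groups described here are shared programs of growing cells. Genes of mitosis and of DNA replication are transcribed at set stages of the cell cycle, so that their level in a bulk sample follows how many cells are cycling, and cholesterol and glycolysis genes supply membranes and energy for growth. Chemokine and interferon-stimulated genes are switched on by inflammatory or antiviral signals, for which mast cells are known as sentinels. The integrated stress response slows translation and raises a set of amino acid and transcription factor genes when amino acids, heme or protein folding are limiting.

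Promoter sequences of 7 genes whose values follow are shown because each holds, in capitals, a match to a motif known to act in its gene group. They come from RefSeq on GRCm38.p6, run 5′ to 3′ on the strand of the gene, and cover 250 bases before to 50 after the annotated start. For mitosis the motif was the cell cycle homology region, TTTGAA, which is bound by the complexes that hold back mitotic genes outside G2 and M phase. Kif2c lies at chr4:117178723-117179022 on the minus strand, with its match on the opposite strand, and Plk1 lies at chr7:122159185-122159484 on the plus strand. The start that RefSeq's table gives for Kif2c lies inside the gene as the deposited table places it, 117159639 to 117182639 on chromosome 4, so that this window is not the region before the gene's outermost 5′ end.
Kif2c: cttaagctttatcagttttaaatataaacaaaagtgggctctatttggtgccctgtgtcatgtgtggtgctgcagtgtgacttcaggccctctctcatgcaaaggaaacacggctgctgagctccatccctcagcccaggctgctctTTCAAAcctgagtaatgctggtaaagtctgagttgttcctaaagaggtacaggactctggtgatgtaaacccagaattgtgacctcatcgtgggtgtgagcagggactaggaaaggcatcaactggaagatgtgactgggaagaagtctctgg
Plk1: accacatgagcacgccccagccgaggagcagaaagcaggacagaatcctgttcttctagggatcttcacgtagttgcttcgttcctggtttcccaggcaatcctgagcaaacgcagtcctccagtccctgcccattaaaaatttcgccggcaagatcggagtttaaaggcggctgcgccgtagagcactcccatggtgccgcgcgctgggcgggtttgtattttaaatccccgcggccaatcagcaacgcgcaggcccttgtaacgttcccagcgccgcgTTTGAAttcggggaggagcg
The sterol regulatory element, TCACNCCAC, where the sterol-sensing factors SREBP bind, was found upstream of Hmgcs1 at chr13:119690101-119690400 on the plus strand.
Hmgcs1: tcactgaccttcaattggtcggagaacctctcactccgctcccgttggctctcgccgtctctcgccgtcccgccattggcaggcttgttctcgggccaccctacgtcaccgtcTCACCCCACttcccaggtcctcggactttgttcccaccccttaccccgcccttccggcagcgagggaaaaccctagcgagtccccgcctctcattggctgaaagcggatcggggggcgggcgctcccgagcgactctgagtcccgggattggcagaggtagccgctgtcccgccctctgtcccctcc
The core of the interferon-stimulated response element (ISRE), the site of the interferon-activated factors, was matched 2 times on the opposite strand of Ifit1 at chr19:34640639-34640938 (plus strand), and 1 time on the opposite strand of Rsad2 at chr12:26456403-26456702 (minus strand).
Ifit1: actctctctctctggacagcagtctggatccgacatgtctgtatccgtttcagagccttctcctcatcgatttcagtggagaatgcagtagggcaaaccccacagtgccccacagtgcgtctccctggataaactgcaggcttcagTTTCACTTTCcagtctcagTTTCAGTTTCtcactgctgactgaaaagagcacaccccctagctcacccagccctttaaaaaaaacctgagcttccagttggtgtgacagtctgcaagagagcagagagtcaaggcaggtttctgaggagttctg
Rsad2: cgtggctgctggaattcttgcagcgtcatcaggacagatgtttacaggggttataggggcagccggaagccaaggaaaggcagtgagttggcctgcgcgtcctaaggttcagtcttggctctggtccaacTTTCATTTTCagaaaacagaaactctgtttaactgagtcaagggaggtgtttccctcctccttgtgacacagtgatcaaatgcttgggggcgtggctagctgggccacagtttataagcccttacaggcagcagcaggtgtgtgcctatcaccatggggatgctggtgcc
The C/EBP-ATF element, TGATGNAA, through which ATF4 and its partners act on stress genes, was matched on the opposite strand of Nupr1 at chr7:126625421-126625720 (minus strand) and on the same strand of Pycr1 at chr11:120643699-120643998 (minus strand). For Nupr1, too, this start lies inside the gene as deposited, 126623249 to 126630861 on chromosome 7.
Nupr1: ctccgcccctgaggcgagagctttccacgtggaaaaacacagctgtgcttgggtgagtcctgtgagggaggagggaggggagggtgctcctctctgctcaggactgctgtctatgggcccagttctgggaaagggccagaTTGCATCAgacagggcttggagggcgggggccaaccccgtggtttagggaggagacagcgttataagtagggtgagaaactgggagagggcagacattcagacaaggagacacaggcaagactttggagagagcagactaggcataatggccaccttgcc
Pycr1: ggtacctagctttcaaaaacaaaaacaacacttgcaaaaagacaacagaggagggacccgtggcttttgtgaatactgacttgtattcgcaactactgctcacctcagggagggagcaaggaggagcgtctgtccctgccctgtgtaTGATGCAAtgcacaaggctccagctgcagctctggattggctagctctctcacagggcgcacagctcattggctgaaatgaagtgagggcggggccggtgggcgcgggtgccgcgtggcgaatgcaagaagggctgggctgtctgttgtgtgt

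Both strands of every promoter were searched, and a match is a description of the letters, not a shown site. TTTGAA was held by 25 of the 36 mitosis genes with a promoter in the table (69.4%) and by 4 of 36 S phase genes (11.1%), against 4893 of all 27025 promoters (18.1%). The ISRE core was held by 14 of 22 interferon genes (63.6%) and 2 of 12 cytokine genes (16.7%), against 943 of all promoters (3.49%). TGATGNAA was held by 7 of 23 genes of the integrated stress response (30.4%), against 1096 of all promoters (4.06%). TCACNCCAC was held by 1 of 18 cholesterol genes (5.56%), against 330 of all promoters (1.22%), while CCAAT was held by 16 of the 18 (88.9%), against 10248 of all promoters (37.9%).

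The libraries held 42.06 to 57.68 M estimated counts (M, mega) in series 1 (median 50.47), against 44.74 to 68.79 M in series 2 and 3 (median 58.14). Moving the series 1 mark among the 3 libraries of each group in all 6561 arrangements gave a two-sided exact permutation p of 0.02881, adjusted over 6 library measures, for the mean difference of −7.455 M. The series 1 library was the smallest of its group in 7 of 8 groups. Genes with a count numbered 18640 to 19370 in series 1, against 18910 to 20340 in series 2 and 3 (exact permutation test, adjusted p = 0.03292), and neither difference kept an adjusted p under 0.05 without the SH and SH_E2 libraries. Kit, the stem cell factor receptor that defines mast cells, stood at 119 to 136 FPKM in series 1 and 98.3 to 175 in series 2 and 3. Markers of other cell types were summed as well. The 12 macrophage and neutrophil markers summed to 4.34 to 15.6 FPKM in series 1 and 3.99 to 13.7 in series 2 and 3, with Elane, Ly6g and S100a8 at 0. The 10 lymphocyte markers summed to 0.0926 to 2.05 FPKM, against 0.0552 to 4.11, with Ms4a1 and Ncr1 at 0. The 9 fibroblast markers summed to 9.63 to 26.5 FPKM, against 8.48 to 15.9, and Pdgfrb, a growth factor receptor, was the highest of them at a mean of 11.7 FPKM over all libraries. As a share of all FPKM they took 0.002553% to 0.007249% in series 1. Without the SH and SH_E2 libraries this was 0.002553% to 0.003269%, against 0.002311% to 0.00357% in series 2 and 3. The 12 erythroid and megakaryocyte markers were not low, at 34.6 to 89.1 FPKM in series 1, against 34.6 to 98 in series 2 and 3. Of these, Itga2b, an integrin chain of megakaryocytes, was higher in series 1, at a mean of 19.7 FPKM, against 16.4 (log2 fold change 0.23; edgeR adjusted p = 0.000733), and Pf4, a platelet chemokine, was lower, at 13.5, against 16.1 (−0.31; edgeR adjusted p = 0.02). The Pf4 call was lost without ICI_E2 replicate 1 or NC_E2 replicate 1, and without the SH and SH_E2 libraries. The part of these cell type markers in the results was not tested. The 7 epithelial markers summed to at most 0.423 FPKM in series 1 and 0.607 in series 2 and 3, with Krt19 at 0. Esr1, the hairpin's target, was listed at 0.254 to 0.409 FPKM in series 1 and 0.161 to 0.52 in series 2 and 3. With 163 to 346 estimated counts in series 1, against 156 to 433, it stood below the filter of 1 FPKM in at least 3 libraries and was not among the genes tested.

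Series 1 stood apart from both other series over a large share of the transcriptome. Of 12183 genes tested with edgeR's quasi-likelihood test, with group as a factor and Benjamini-Hochberg adjustment, 4832 (39.7%) differed at an adjusted p under 0.05, 2413 higher (19.8%) and 2419 lower (19.9%) in series 1. A change of 1.5-fold or more was reached by 1049 of them (8.61%), 445 higher and 604 lower. Against series 2 alone 4611 genes differed (37.8%) and against series 3 alone 5190 (42.6%). Series 2 and series 3 differed from each other in 2363 genes (19.4%), of which 280 (2.30%) reached 1.5-fold, against 1013 (8.31%) for series 1 to series 2 and 1349 (11.1%) for series 1 to series 3. The comparisons of series 1 with each other series share the series 1 libraries. With the mean of each group removed, the first component held 23.7% of the variation. On it the series 1 libraries scored 25.5 to 35.5, the series 2 libraries −17.9 to −7.35 and the series 3 libraries −18.6 to −16.9.

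**Figure D1:**
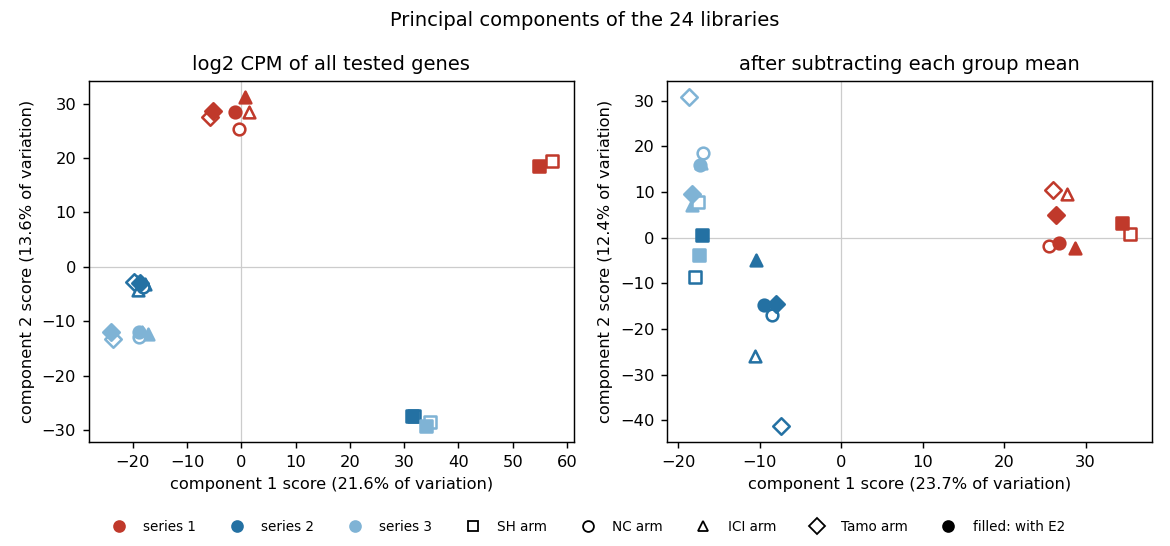
Scores of the 24 libraries on the first 2 principal components (axes, with the percent of variation), for log2 CPM as they stand and with the mean of each group removed; colour marks the series and shape the arm, filled with E2. With group means removed, the 8 series 1 libraries score 25.5 to 35.5 on component 1 and the 16 others −18.6 to −7.35; series was chosen with this split known.

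Mitosis genes were lower in series 1 without exception. All 43 tested members of the list passed as lower (19.9% of all genes were lower), with a median log2 fold change of −0.93, against 0.01 over all genes tested. In 25 of the 43 (58.1%) every series 1 library lay below every library of series 2 and 3, which held for 3.14% of all genes. Ccnb1, the cyclin that drives entry into mitosis, stood at 12.7 to 15.1 FPKM in series 1 (median 14.3), against 25 to 33.2 in series 2 and 3 (median 30.7). Its log2 fold change was −1.12 ± 0.06 (SE; edgeR adjusted p = 4.92e-10). The ranges were far apart, and no treatment group closed the gap. Kif20a, a kinesin needed for cytokinesis, stood at 7.46 to 9.89 FPKM (median 8.38), against 15.6 to 24.3 (median 21.4), a log2 fold change of −1.30 ± 0.07 (edgeR adjusted p = 6.05e-10). Kif2c, the microtubule depolymerase that corrects attachments at centromeres, stood at 4.51 to 5.84 FPKM (median 4.9), against 9.1 to 12.2 (median 11.3), a log2 fold change of −1.16 ± 0.08 (edgeR adjusted p = 2.62e-09). Plk1, the kinase of mitotic entry and spindle assembly, stood at 10.1 to 17.7 FPKM (median 12.3), against 20.8 to 33.5 (median 29.8), a log2 fold change of −1.13 ± 0.11 (edgeR adjusted p = 2.02e-07). None of these 4 genes overlapped between the series, Kif2c and Plk1 with the TTTGAA shown above among them. Series 2 was itself below series 3 for 33 of the 43 genes (8.78% of all genes were lower there), at a median of −0.29, so that the 3 series were graded, with series 1 lowest by the wider step. Within the arms 33, 38, 40 and 35 of the 43 passed as lower in the SH, NC, ICI and Tamo arm, where 11.2%, 4.70%, 5.44% and 4.92% of all genes were lower.

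DNA replication genes followed with smaller differences. Of 45 tested, 41 were lower and none higher, with a median log2 fold change of −0.63, and the 4 that did not pass were Dut (−0.21), Rfc4 (−0.13), Rfc2 (−0.03) and E2f2 (0.04). In 23 of the 45 (51.1%) the series 1 libraries all lay below the others. Rrm2, the subunit that makes ribonucleotide reductase active in S phase, stood at 50.6 to 71 FPKM in series 1 (median 61.9), against 114 to 171 in series 2 and 3 (median 153). Its log2 fold change was −1.31 ± 0.08 (edgeR adjusted p = 1.82e-09). Clspn, a mediator of the replication checkpoint, and Orc1, a subunit of the origin recognition complex, fell by 1.08 and 1.02 on the log2 scale, again without overlap between the series. Series 2 was below series 3 here too, though by less than for mitosis, at a median of −0.12. Of the 45 genes 10 passed as lower in series 2 (22.2%, against 8.78% of all genes) and none as higher, and 40 had a negative log2 fold change. Of 14 replication-dependent histone genes 5 passed as lower (35.7%, against 19.9% of all genes) and none as higher. The count was 2 without ICI_E2 replicate 1 or SH replicate 1, and 3 without ICI_E2 replicate 2 or 3, NC replicate 1, SH replicate 2 or 3 or SH_E2 replicate 3. Moreover, these transcripts share reads with near copies and lack poly(A) tails, so that their values are uncertain. In bulk RNA, fewer cycling cells and less of these transcripts per cell cannot be told apart.

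**Figure D2:**
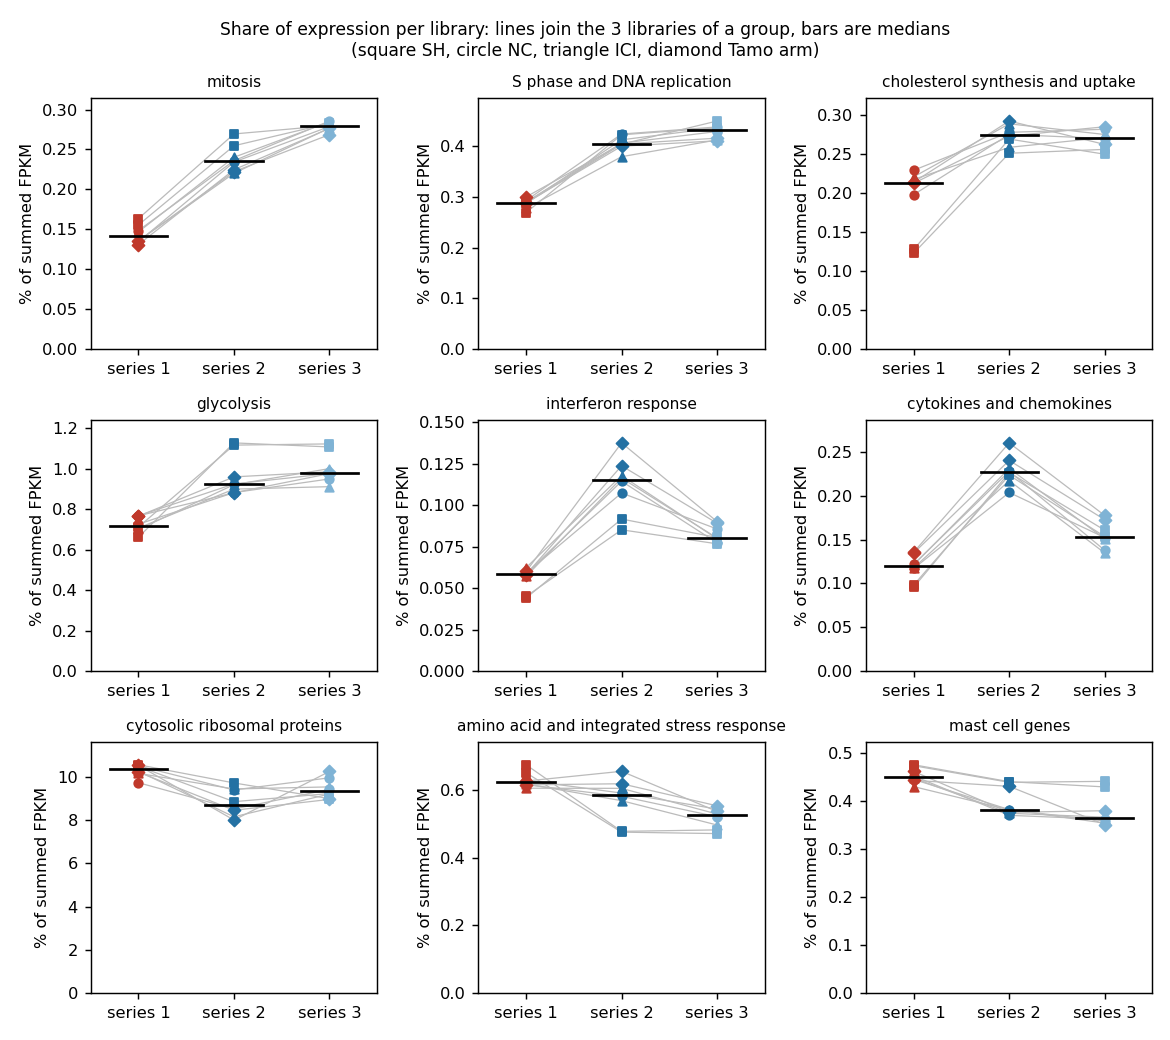
Summed FPKM of 9 gene lists as a percent of all FPKM in each library (y axis), by series (x axis); grey lines join the libraries of a group and black bars are medians. The mitosis share has medians of 0.1413%, 0.235% and 0.2793% in series 1, 2 and 3, while the interferon and cytokine shares peak in series 2 and the ribosomal protein share is highest in series 1.

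Summed over its members, the mitosis list took a median of 0.1413% of all FPKM in series 1, 0.235% in series 2 and 0.2793% in series 3. The S phase list took 0.2883%, 0.4051% and 0.4325% in series 1, 2 and 3. For both lists the series 1 library was the lowest of its group in 8 of 8 groups.

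Most cholesterol synthesis and uptake genes were lower in series 1. Of 25 tested, 21 were lower (84%, against 19.9% of all genes) and 1 was higher, with a median log2 fold change of −0.53. The exception was Tm7sf2, a sterol reductase, at 0.57 ± 0.15 (edgeR adjusted p = 0.00459), and Sqle, Srebf2 and Ggps1 did not pass. Idi1, which isomerizes the isoprenoid building block, stood at 17.3 to 39.5 FPKM in series 1 (median 33.7), against 38.6 to 70.2 in series 2 and 3 (median 55.3), a log2 fold change of −0.95 ± 0.11 (edgeR adjusted p = 1.43e-06). Those ranges touched at their edges, and the lowest values were those of SH and SH_E2. Nsdhl, Dhcr7 and Hsd17b7, enzymes of the late steps from lanosterol to cholesterol, did not overlap between the series. Nsdhl stood at 11.2 to 25.9 FPKM (median 22.8), against 30.9 to 41.2 (median 36.6), a log2 fold change of −0.89 ± 0.11 (edgeR adjusted p = 4.12e-06). Hsd17b7 stood at 1.58 to 3.57 FPKM, against 3.77 to 7.40. Hmgcs1, which makes the precursor HMG-CoA and holds the sterol element shown above, varied more between groups. It stood at 18 FPKM in SH_E2 and 18.8 in SH in series 1, against 58.5 to 70 in the same groups of series 2 and 3, while in the ICI group it stood at 63 in series 1, against 49.4 and 67.6. Its log2 fold change was −0.77 ± 0.18 over all arms (edgeR adjusted p = 0.00219). No member of the list was lower in series 2 than in series 3, where 8.78% of all genes were, and 2 were higher (8%, below the 10.6% of all genes).

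Glycolysis and fatty acid genes were lower as well. Of 19 glycolysis genes 15 were lower (78.9%, against 19.9% of all genes) and none higher, with a median log2 fold change of −0.44. Gapdh (−0.40), Gpi1 (−0.17), Pfkm (−0.08) and Pfkfb3 (0.13) did not pass. Slc2a1, the main glucose transporter of growing cells, stood at 20.6 to 59.3 FPKM in series 1 (median 48.1), against 61.9 to 90.1 in series 2 and 3 (median 77.3), a log2 fold change of −0.87 ± 0.12 (edgeR adjusted p = 1.06e-05). Pfkl, a subunit of the phosphofructokinase that sets the pace of glycolysis, stood at 24.6 to 39 FPKM, against 50.4 to 67.5, a log2 fold change of −0.85 ± 0.09 (edgeR adjusted p = 1.24e-06). Tpi1, the triosephosphate isomerase, fell by 0.77 and Slc16a3, which exports lactate, by 0.81 on the log2 scale, both without overlap. Fasn, the fatty acid synthase, stood at 19.2 to 39.6 FPKM, against 43.7 to 95. Of 18 fatty acid synthesis genes 10 were lower (55.6%, against 19.9% of all genes) and none higher (median −0.27). Of 18 hypoxia-response genes 14 were lower (77.8%, against 19.9% of all genes). Among them were Bnip3, a mitophagy receptor (−1.05 ± 0.17; edgeR adjusted p = 7.1e-05), and Car12, a carbonic anhydrase (−0.73 ± 0.10; edgeR adjusted p = 9.22e-06). The 2 that were higher (11.1%, below the 19.8% of all genes) were Car9 and Ero1l. Without the SH and SH_E2 libraries 8 hypoxia-response genes were lower and 1 higher.

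Chemokine and interferon-stimulated genes were lower in series 1, but here series 2 and series 3 differed as well. Of 17 cytokine and chemokine genes 11 were lower (64.7%, against 19.9% of all genes) and none higher in series 1 (median −0.72). Of 26 interferon-response genes 18 were lower (69.2%) and none higher (median −0.53). Cxcl10, a chemokine that draws activated T cells, stood at 0.239 to 1.44 FPKM in series 1 (median 0.531), with medians of 8.65 in series 2 and 2.45 in series 3. Its log2 fold change was −3.48 ± 0.43 (edgeR adjusted p = 4.58e-06), with the highest series 1 value just above the lowest of the others. Ccl3, a chemokine for monocytes, stood at 0.244 to 2.46 FPKM (median 1.61), with medians of 17.2 in series 2 and 9.1 in series 3, a log2 fold change of −3.13 ± 0.37 (edgeR adjusted p = 3.01e-06). Ccl4, its close relative, fell by 2.49 on the log2 scale and was lowest in SH and SH_E2 of series 1, at 0.269 and 0.773 FPKM. Ifit1, which binds RNA lacking a host cap, stood at 1.71 to 9.07 FPKM in series 1 (median 7.55), with medians of 42.5 in series 2 and 14.7 in series 3, a log2 fold change of −2.27 ± 0.40 (edgeR adjusted p = 0.000206). Rsad2, the antiviral enzyme viperin, stood at 1.35 to 8.86 FPKM (median 8.36), with medians of 41.5 in series 2 and 9.97 in series 3. Its series 1 and series 3 libraries overlapped. Ifih1, a sensor of double-stranded RNA, stood at 0.754 to 2.01 FPKM, against 2.35 to 7.9 in series 2 and 3, with no overlap.

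Series 2 was above series 3 for 17 of the 26 interferon genes and below for 4 (10.6% and 8.78% of all genes), with a median of 0.45, and above for 14 of the 17 cytokine genes and below for 1 (median 0.60). The median difference of series 1 from series 2 was −0.61 for interferon and −1.02 for cytokine genes, and from series 3 it was −0.37 and −0.20. Of 33 immediate early and MAPK feedback genes 18 were lower in series 1 (54.5%, against 19.9% of all genes) and 2 higher (6.06%, below the 19.8% of all genes). In series 2 against series 3, 18 were higher (54.5%, against 10.6% of all genes). Fos, a subunit of the AP-1 transcription factor, did not pass in series 1 against series 2 and 3: its medians were 4.61, 5.17 and 1.58 FPKM in series 1, 2 and 3. Within single arms of 6 libraries, 9 of the 26 interferon genes were lower in the SH arm (34.6%, against 11.2% of all genes). In each of the NC, ICI and Tamo arms 2 were (7.69%), near the 4.70%, 5.44% and 4.92% of all genes that were lower there. The list's median log2 fold change was −0.59 in the SH arm, −0.48 in the NC arm, −0.60 in the ICI arm and −0.64 in the Tamo arm. Of the 26 genes 24, 24, 25 and 25 had a negative log2 fold change, in the same order of arms. Of NF-kB genes 7 of 12 were lower (58.3%, against 19.9% of all genes) and none higher. They were led by Tnfaip3, the feedback inhibitor A20, at 0.521 to 0.805 FPKM in series 1, against 1.01 to 1.68 in series 2 and 3. Between series 2 and series 3, 4 of the 12 were higher in series 2 (33.3%, against 10.6% of all genes) and 1 lower (8.33%, near the 8.78%).

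**Figure D3:**
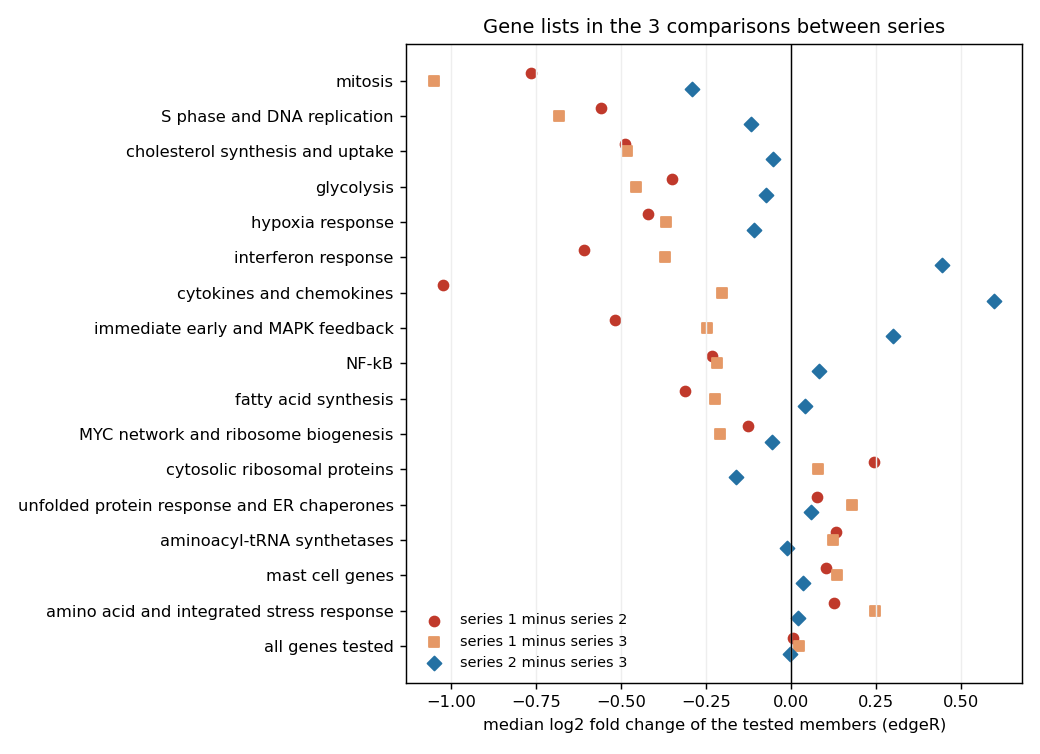
Median log2 fold change of the tested members of 16 gene lists and of all genes (x axis), for series 1 minus series 2 (circles), series 1 minus series 3 (squares) and series 2 minus series 3 (diamonds). Mitosis sits at −0.76 and −1.05 for series 1 and at −0.29 for series 2 minus 3, whereas the interferon and cytokine lists sit at 0.45 and 0.60 for series 2 minus 3.

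The steepest rises in series 1 were read from 12 protein-coding genes chosen by size of change. Angptl6, a secreted angiopoietin-like factor, stood at 22.2 to 27.6 FPKM in series 1 (median 24), against 5.02 to 11.9 in series 2 and 3 (median 6.71), a log2 fold change of 1.60 ± 0.18 (edgeR adjusted p = 1.34e-06). Il1r1, the receptor of interleukin-1, stood at 2.88 to 7.42 FPKM, against 0.752 to 2.26, a log2 fold change of 1.56 ± 0.14 (edgeR adjusted p = 1.4e-07). Stard5, a sterol-binding protein, stood at 5.65 to 12 FPKM, against 1.47 to 3.43, and Akr1b7, an aldose reductase relative, at 9 to 15.4, against 2.46 to 5.54. None of these 4 overlapped between the series. Pde3b, a cyclic nucleotide phosphodiesterase, stood at 0.696 to 2.23 FPKM, against 0.0691 to 0.475, and Pi16 at 4.53 to 10.8, against 1.21 to 2.61. Asic4, Col4a1, Hsd17b14, Tmem56, Slamf9 and Fcgr1 rose by 1.48 to 3.46 on the log2 scale with some overlap. All 12 genes were higher than both other libraries in at least 6 of 8 groups, by the rule that named them. Of the 12 falling genes chosen in the same way, 2 others were Ppih, a splicing cyclophilin, at 0.736 to 3.16 FPKM, against 3.22 to 20.4, and Klf2, an immediate early gene and quiescence factor of lymphocytes, which fell by 1.77 on the log2 scale with overlap.

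Part of the integrated stress response was higher in series 1. Of 24 tested genes 11 were higher (19.8% of all genes) and 1 was lower, with a median log2 fold change of 0.21, and in 7 (29.2%) all series 1 libraries lay above all others, which held for 2.30% of all genes. Atf5, a transcription factor translated under stress, stood at 72.5 to 126 FPKM in series 1 (median 80), with medians of 51.6 in series 2 and 30.8 in series 3. Its log2 fold change was 1.07 ± 0.16 (edgeR adjusted p = 4.02e-05). Ddit3, which encodes CHOP, stood at 139 to 167 FPKM (median 153), against 50.7 to 110 (median 90), a log2 fold change of 0.87 ± 0.09 (edgeR adjusted p = 9.37e-07). Trib3, a pseudokinase induced by CHOP and ATF4, stood at 183 to 259 FPKM (median 196), against 77.4 to 141 (median 121), a log2 fold change of 0.88 ± 0.11 (edgeR adjusted p = 6.4e-06). Pycr1, which completes proline synthesis, stood at 7.04 to 10.1 FPKM, against 2.92 to 5.98 (log2 fold change 0.89 ± 0.07; edgeR adjusted p = 1.02e-08). Nupr1, a stress-induced chromatin protein, stood at 3.35 to 15.5 FPKM, against 1.65 to 4.15, with SH_E2 of series 1 highest and the ranges overlapping. The gene that was lower was Shmt2, which feeds one-carbon units in mitochondria (−0.45; edgeR adjusted p = 1.44e-08), and Atf4 itself did not pass at 0.08 (edgeR adjusted p = 0.616). Asns, the asparagine synthetase, rose by 0.43, and the amino acid carriers Slc7a5, Slc7a1 and Slc38a2 did not pass, at 0.04, 0.00 and −0.11. Among 22 aminoacyl-tRNA synthetases 11 were higher (50%, against 19.8% of all genes) and 5 lower (22.7%, near the 19.9% of all genes).

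Of 26 genes of the unfolded protein response 11 were higher (42.3%, against 19.8% of all genes) and none lower, each by less than 1.5-fold. Against series 2 alone 8 were higher (30.8%, against 18.7% of all genes) and 1 lower (3.85%, below the 19.1%). Against series 3 alone 14 were higher (53.8%, against 21.7%) and none lower. Series 2 was itself above series 3 for 7 of the 26 (26.9%, against 10.6% of all genes) and below for none. Hspa5, the chaperone BiP, stood at 348 to 460 FPKM in series 1 (median 434), against 274 to 419 in series 2 and 3 (median 295), a log2 fold change of 0.38 ± 0.07 (edgeR adjusted p = 0.000303). Derl1, a channel protein of ER-associated degradation, stood at 66.8 to 83.1 FPKM, against 51.4 to 64.5, without overlap. Within single arms, 2 were higher and 2 lower in the SH arm (7.69% each way, below the 8.59% and 11.2% of all genes), and 2 were higher in the NC arm (7.69%, against 3.17%). In the ICI and in the Tamo arm 5 were higher (19.2%, against 3.92% and 3.55%), and none was lower in the NC, ICI or Tamo arm. The median log2 fold change was −0.04 in the SH arm, where 17 of the 26 were negative, against 0.16, 0.19 and 0.19 in the NC, ICI and Tamo arms. One member, P4hb, had a more negative series 1 difference in the SH arm than in the NC arm by edgeR's interaction test. That call was lost without NC_E2 replicate 1. For the list as a whole, a difference between the arms was not tested.

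Of 28 tested mast cell genes 13 were higher in series 1 (46.4%, against 19.8% of all genes) and 4 lower (14.3%, below the 19.9% of all genes), with a median log2 fold change of 0.17. Cpa3, the carboxypeptidase of mast cell granules, stood at 290 to 586 FPKM in series 1 (median 306), against 134 to 543 in series 2 and 3 (median 197), a log2 fold change of 0.52 ± 0.08 (edgeR adjusted p = 3.71e-05). It stood at 586 and 545 FPKM in SH_E2 and SH of series 1, against 463 to 543 in those groups of series 2 and 3, and at 290 to 311 FPKM in the other groups, against 134 to 227. The series thus overlapped only where SH_E2 and SH libraries of series 2 and 3 were set beside other groups of series 1. Mrgprb2, a receptor for secretagogues, and Tpsab1, a tryptase that shares reads with Tpsb2, rose by 1.03 and 0.79. The 4 lower genes were Ptgs1, the cyclooxygenase of prostaglandin D2 synthesis (10.5 to 19.5 FPKM, against 16.9 to 32.4), Mcpt8, Gata1 and Il4ra. Kit itself did not pass, at 0.12 ± 0.08 (edgeR adjusted p = 0.282), nor did Gata2 (0.01), Hdc (−0.05) or Csf2rb (−0.09), all markers of the lineage.

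Of 82 cytosolic ribosomal protein genes 33 were higher (40.2%, against 19.8% of all genes) and none lower, at a small median of 0.16, and the number depended on the libraries used. It was 60 against series 2 (73.2%, against 18.7% of all genes) and 6 against series 3 (7.32%, below the 21.7% of all genes), it was 9 without the SH and SH_E2 libraries, and it was 55 without Tamo replicate 3. Summed, these genes took a median of 10.39% of all FPKM in series 1, 8.692% in series 2 and 9.333% in series 3. Many of them share reads with processed pseudogenes, which makes single members uncertain.

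**Figure D4:**
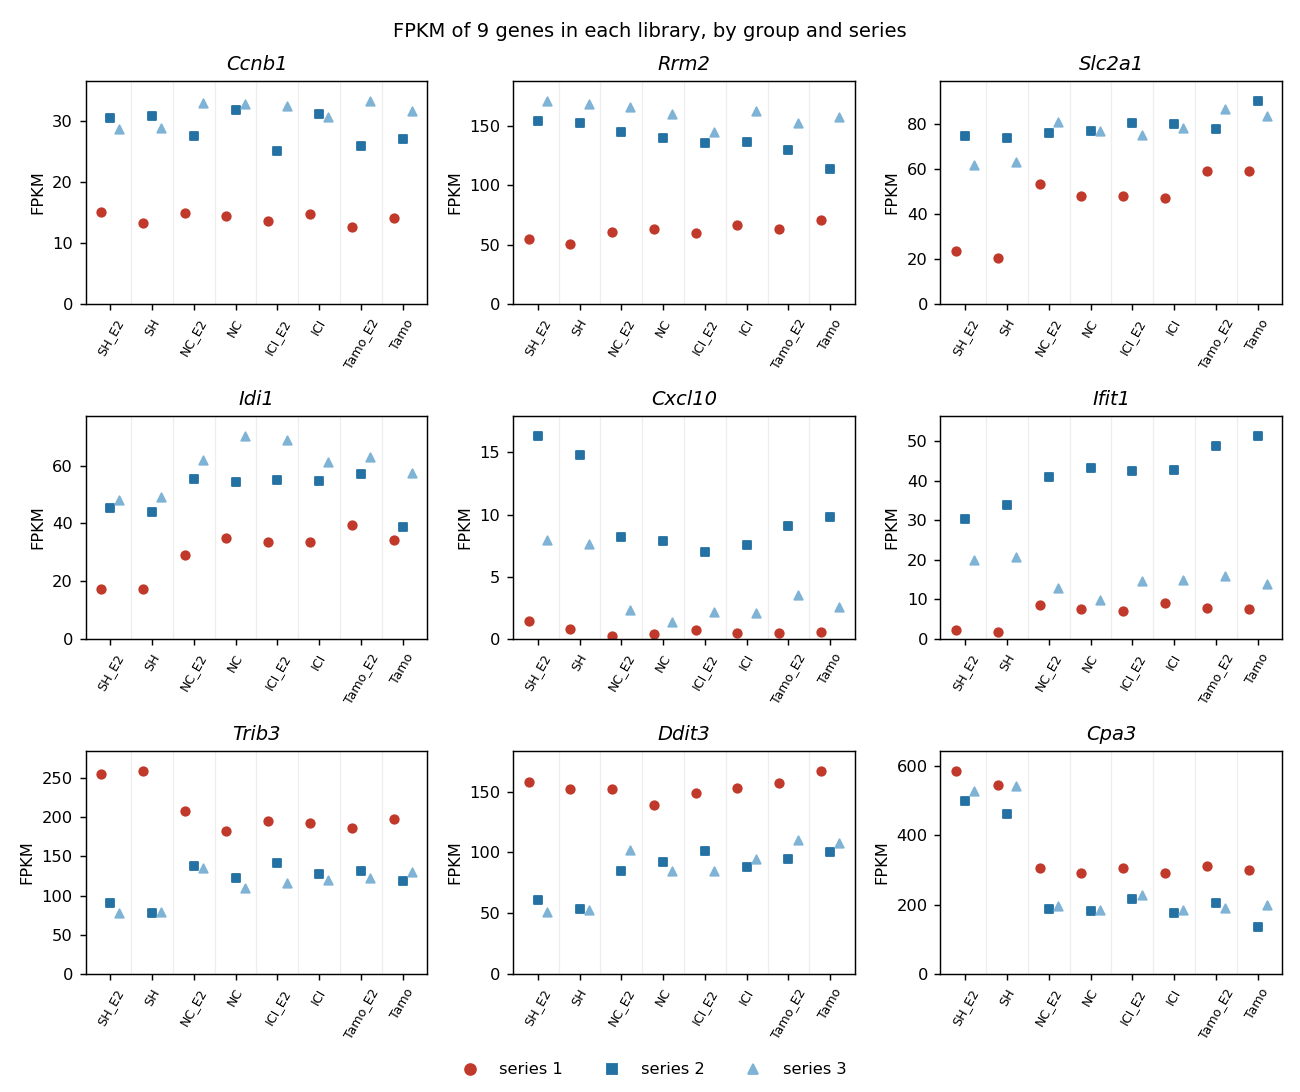
FPKM (y axis, from 0) of 9 genes in each library, by group (x axis), with series 1 as circles, series 2 as squares and series 3 as triangles. Ccnb1 and Rrm2 lie lower in every series 1 library, Trib3 and Ddit3 lie higher, and Slc2a1, Idi1, Trib3 and Ifit1 show their widest series gap or lowest series 1 values in SH and SH_E2.

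Whether the series 1 difference changed with treatment was tested for 3 contrasts: with E2 against without, the inhibitor arms (ICI and Tamo) against the vector arms (SH and NC), and the SH arm against the NC arm. With E2 against without gave 0 of 12183 genes by edgeR's quasi-likelihood test (0%), with 234 at an unadjusted p under 0.05 and 0 by DESeq2. The smallest p was sought among named protein-coding genes with a mean of 1 FPKM or more in either set of libraries. It was there for Galnt10, which adds the first sugar of mucin glycans (edgeR adjusted p = 1). Inhibitor against vector arms gave 0 genes by edgeR (0%), with 606 at an unadjusted p under 0.05 and 2 by DESeq2. Among the same named genes, the smallest p there was for Tet3, a 5-methylcytosine dioxygenase, at −2.21 (edgeR adjusted p = 0.944). The SH arm against the NC arm gave 29 genes (0.238%), 4 with a more positive series 1 difference in the SH arm (0.0328%) and 25 with a more negative one (0.205%).

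Those 29 genes included 6 of the 25 cholesterol genes (Cyp51, Dhcr7, Lss, Mvd, Nsdhl and Stard4), 2 glycolysis genes (Pfkl and Slc2a1) and 2 genes of the integrated stress response (Ddit3 and Trib3). The members outside the list of largest differences were named after their values were seen. Slc2a1 stood at 23.7 and 20.6 FPKM in SH_E2 and SH of series 1, against 61.9 to 74.7 in those groups of series 2 and 3, and at 53.3 and 48.2 in NC_E2 and NC of series 1, against 75.9 to 81. The series 1 difference was −1.66 in the SH arm and −0.64 in the NC arm, and their difference −1.03 ± 0.13 (edgeR adjusted p = 0.00494). Dhcr7, the last reductase of cholesterol synthesis, stood at 6.09 and 5.77 FPKM in SH_E2 and SH of series 1, against 17.1 to 18.5 in series 2 and 3. In NC_E2 and NC it stood at 11.5 and 12.1 in series 1, against 17.2 to 19.6, so that the arms differed by −0.95 ± 0.14 (edgeR adjusted p = 0.00979). Mvd, the mevalonate decarboxylase, stood at 14.5 and 12.1 FPKM in SH_E2 and SH of series 1, against 29.3 to 38.9, but at 33.7 and 31.2 in NC_E2 and NC, against 31.4 to 37.3. In the NC arm its series 1 difference was −0.13 (edgeR adjusted p = 0.523), and the arms differed by −1.20 ± 0.16 (edgeR adjusted p = 0.00494).

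For Trib3 the order of the SH and NC arms changed between the series, while for Ddit3 the 2 arms lay close together in series 1. In series 1 Trib3 stood at 255 and 259 FPKM in SH_E2 and SH, against 208 and 183 in NC_E2 and NC. In series 2 and 3 it stood at 77.4 to 90.5 FPKM in SH_E2 and SH, against 109 to 138 in NC_E2 and NC. The SH arm was therefore the higher one in series 1 and the lower one in series 2 and 3, and the series 1 difference was 1.63 in the SH arm and 0.61 in the NC arm, 1.02 ± 0.13 apart (edgeR adjusted p = 0.00494). Ddit3 stood at 158 and 152 FPKM in SH_E2 and SH of series 1, against 50.7 to 61.2 in series 2 and 3, and at 152 and 139 in NC_E2 and NC, against 85 to 102, 0.82 ± 0.15 apart (edgeR adjusted p = 0.0269). Il1rl1, the receptor of interleukin-33 on mast cells, stood at 4.6 and 4.23 FPKM in SH_E2 and SH of series 1, against 7.5 to 9.39, and at 18.4 and 14.6 in NC_E2 and NC, against 12.7 to 13.2, −1.27 ± 0.17 apart (edgeR adjusted p = 0.00494). Each arm has only 2 series 1 libraries, and the calls lean on them. Without NC_E2 replicate 1 the test gave 1 gene and none of the 29, with Trib3 at 0.99 (edgeR adjusted p = 0.0566) and Il1rl1 at −1.09 (edgeR adjusted p = 0.0704). Without SH replicate 1 or NC replicate 1 it gave 11 genes each, without SH_E2 replicate 1 18 genes, without NC replicate 2 16 genes and without Tamo replicate 2 57 genes. Without SH replicate 1 Il1rl1 stood at −1.26 (edgeR adjusted p = 0.0622). Ddit3 lost its call when any of 10 libraries was left out, at 0.74 to 0.84 (largest edgeR adjusted p = 0.273): NC replicates 1, 2 and 3, NC_E2 replicates 1 and 3, SH replicates 1, 2 and 3 and SH_E2 replicates 1 and 3.

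**Figure D5:**
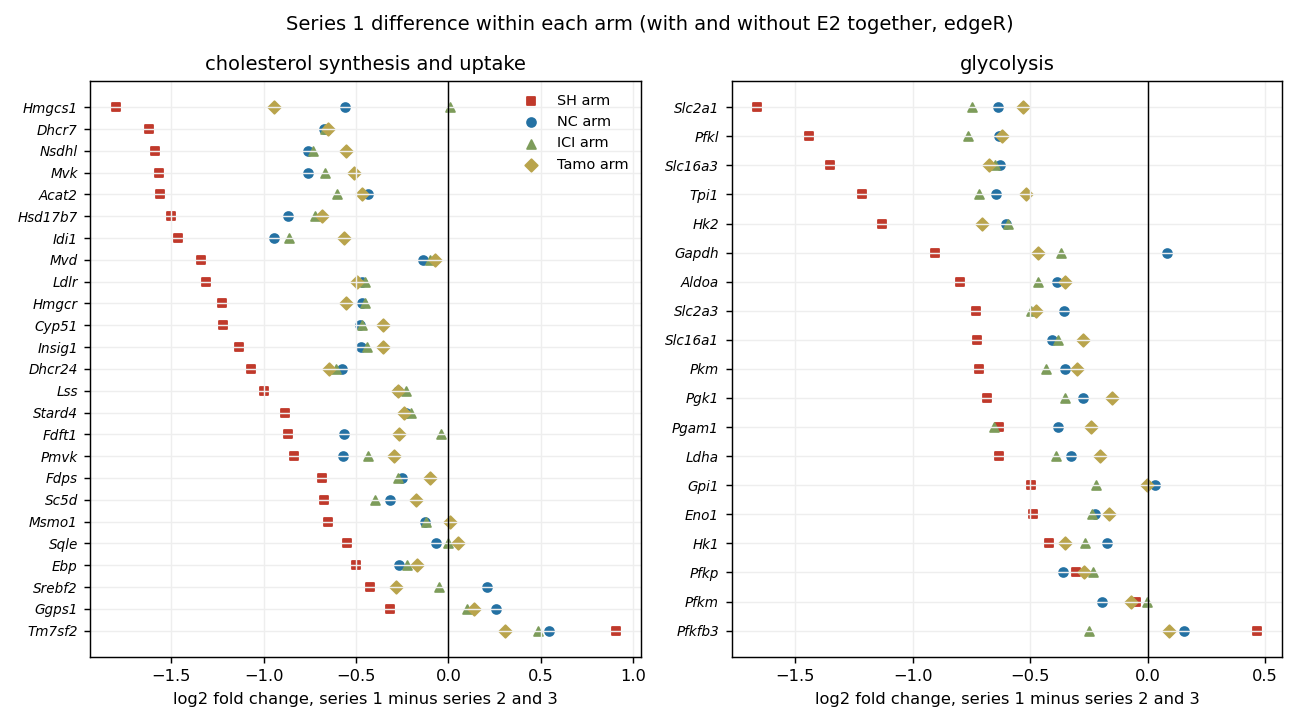
Log2 fold change of series 1 minus series 2 and 3 (x axis) of each tested cholesterol gene (left) and glycolysis gene (right) within the SH, NC, ICI and Tamo arms, ordered by the SH arm. In the cholesterol panel 22 of 25 genes passed as lower in the SH arm, at a median of −1.07, against 10 in the NC arm at −0.47, 9 in the ICI arm at −0.40 and 9 in the Tamo arm at −0.29.

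Over all genes tested, 2416 (19.8%) differed between series 1 and series 2 and 3 in the SH arm, 958 (7.86%) in the NC arm, 1140 (9.36%) in the ICI arm and 1032 (8.47%) in the Tamo arm. The SH arm was not tested against the ICI or the Tamo arm. Cholesterol genes were lower in 22, 10, 9 and 9 of 25 cases in the SH, NC, ICI and Tamo arm, so that most did not pass outside the SH arm. Their medians were −1.07 in the SH arm, −0.47 in the NC arm, −0.40 in the ICI arm and −0.29 in the Tamo arm. Glycolysis genes were lower in 15, 8, 9 and 8 of 19 cases, and integrated stress genes higher in 13, 4, 4 and 6 of 24 cases, in the same order of arms. Of all genes 11.2%, 4.70%, 5.44% and 4.92% were lower and 8.59%, 3.17%, 3.92% and 3.55% higher in those arms. Mitosis genes had medians of −0.79 in the SH arm, −0.95 in the NC arm, −0.95 in the ICI arm and −0.90 in the Tamo arm.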

How the data were processed

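Total RNA from P815 cells was extracted with TRIzol and sequenced on an Illumina instrument, per the labels' protocols. The authors deposited 1 table of 55385 genes with FPKM values and estimated counts per library. Per the submitters' processing notes, cutadapt, HISAT2 and GRCm38 were used, while the sources used here name no quantifier or annotation. The deposited estimated counts are whole numbers that pile up at multiples of 4 (16.2% of counts from 1 to 40 are 4), so that counts divided by 4 were also tested. Genes with 1 FPKM or more in at least 3 libraries (12183) were fitted with edgeR 4.0.16 (R 4.3.3; TMM, quasi-likelihood, group plus series, Benjamini-Hochberg at 0.05). DESeq2 1.42.0, limma 3.58.1 on log2(FPKM + 1), other filters, subsets and each library left out were alternatives. Scripts were tested on simulated data. Lists and members were chosen with earlier results of these data known. Named were 12 rising and 12 falling genes, up to 4 passing members of a list, and fixed genes. Exceptions within lists and Hmgcs1 were named after their values were seen. FPKM values of 1 gene compare between libraries.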

Additional observations from a re-analysis of the deposited data

Results flagged for a closer look

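In 43 sets of 8 group-wise log2 differences (series 1 over the mean of series 2 and 3), 2 held a group far from the other 7, and chance flags about 1 in 20. The sets covered library measures, summed shares of gene lists and the FPKM of single genes, and the 2 flagged were of gene FPKM. Col4a1, a chain of basement membrane collagen, differed by 0.38 in NC_E2, against 1.70 to 2.24 in the other groups. Rsad2, the antiviral enzyme, differed by −3.13 in SH, against −2.18 to −1.48 in the other groups.

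By edgeR's interaction test, 29 genes had a series 1 difference that differed between the SH and the NC arm. On the log2 scale, SH arm minus NC arm, Slc2a1 differed by −1.03, Trib3 by 1.02, Mvd by −1.20, Il1rl1 by −1.27 and Dhcr7 by −0.95. Lss and Cyp51, the cyclase and the demethylase around lanosterol, differed by −0.72 and −0.74, and Ddit3 by 0.82. With 2 series 1 libraries in each arm, the calls moved with single libraries, as given in the report.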

How the results depend on the processing

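The 4832 genes that differed between series 1 and series 2 and 3 became 5112 by DESeq2 (4826 shared), 5376 with the replicate block, 4788 with counts thinned to the smallest library (chosen after seeing the data), 2062 without the E2-treated libraries (2022 shared) and 1832 in the inhibitor arms alone (1777 shared). Leaving out 1 library gave 4229 to 5202. The same range was 4182 to 4780 for series 1 against series 2, 4794 to 5628 against series 3, and 1759 to 2945 for series 2 against series 3. It was 0 to 0 for E2 and for the inhibitor arms, and 1 to 57 for the SH against the NC arm. That last count was 147 by DESeq2 and 18 with no filter beyond a count, and the inhibitor contrast gave 2 genes by DESeq2. Libraries of the same number deviated together, with a median correlation of 0.232 over 84 pairs against −0.141 for different numbers, but not every pair passed 0.1, and 23 of 24 libraries lay closest to their own number. Without SH and SH_E2, the differences in total (−5.096 M), genes detected (−409.7) and long noncoding share (0.0344 percentage points) lost their calls (exact permutation test, adjusted p = 0.1536, 0.1536 and 0.1749). In the inhibitor arms alone Apoe stood at −0.069 and Tet3 at −1.21, the other way from all libraries. For snoRNA host genes the call count turned direction with limma (3 genes at either pseudocount) and without E2 (1 gene). Causes were not tested. Genes under 1 FPKM, such as Esr1, were left out by the filter.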

Other observations

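Among RNA classes, long noncoding RNAs were higher in series 1 for 118 and lower for 41 of 451 genes tested, where 19.8% of all genes were higher and 19.9% lower, with a median log2 fold change of 0.18 (edgeR). Small noncoding RNAs were higher for 10 and lower for 35 of 314, both below the share of all genes, with a median of −0.18. The long noncoding share of counts was 0.6932% to 0.8175% in series 1, against 0.5989% to 0.7554% in series 2 and 3.

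Mitochondrially encoded transcripts, which are cut from shared precursors, did not move together. Of 13 tested, 3 were higher (23.1%, near the 19.8% of all genes) and 2 lower (15.4%, below the 19.9%), and 8 did not pass. The median log2 fold change was −0.02. mt-Nd1, a subunit of complex I, stood at 3980 to 4700 FPKM in series 1 (median 4290), against 5230 to 6390 in series 2 and 3 (median 5760), with no overlap. Its log2 fold change was −0.45 ± 0.03 (edgeR adjusted p = 1.57e-08). mt-Cytb, a subunit of complex III, stood at 5080 to 5530 FPKM (median 5430), against 4160 to 5340 (median 4810), a log2 fold change of 0.14 ± 0.04 (edgeR adjusted p = 0.00564).

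Myb, a transcription factor of immature blood cells, stood at 23.7 to 32.1 FPKM in series 1 (median 30.3), against 12 to 24.1 in series 2 and 3 (median 17.1), with a log2 fold change of 0.70 ± 0.06 (edgeR adjusted p = 7.38e-08). P2ry10, a lysophospholipid receptor, stood at 9.54 to 18.3 FPKM, against 3.13 to 6.18, with no overlap.

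For Mt2, a metallothionein, series 1 lay between the others, with medians of 105, 191 and 53.5 FPKM in series 1, 2 and 3, and series 2 minus series 3 was 1.76 on the log2 scale (edgeR adjusted p = 5.05e-06).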
